A study of Homo sapiens with 3 samples.

Results

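The genes described are those of the translation initiation factors eIF1 to eIF6. They are all entries of the expression table whose symbol starts with EIF1 to EIF6, leaving out the eIF2 kinases (EIF2AK), the eIF4E-binding proteins (EIF4EBP), antisense entries and 1 entry with a pseudogene-style name, EIF3IP1. This name rule, which uses no measured value, took 48 of 26485 entries. The RNA came from CAMA1, an estrogen receptor-positive breast cancer line whose labels also call it amplified for FGFR1. The cells had fewer than 10 passages and grew in dishes, the last 48 h deprived of estradiol. Poly-A RNA was sequenced in 3 libraries of 1 group, labelled as control and as biological replicates, so there is no treated or untreated group to compare. Whether the replicates came from separate cultures or days is not stated, so p-values measure the spread between these samples, which may be technical.

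Initiation factors bring a ribosome to an mRNA and place it at the start codon. The cap-binding complex eIF4F recruits the small ribosomal subunit, which carries eIF3, eIF1, eIF1A, eIF5 and the initiator tRNA bound to eIF2; the subunit scans to the start codon, eIF2 lets go of the tRNA after its GTP is cleaved, and eIF5B joins the large subunit. In breast cancer cells, as in others, the growth-factor kinase mTOR controls the eIF4F step through the eIF4E-binding proteins, and stress kinases hold back initiation by phosphorylating eIF2.

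Levels are given in TPM, a gene's share of all transcripts after its count is divided by its length, computed from the counts and gene lengths that the authors deposited, with SD over the 3 libraries. Detection required 10 or more counts in every one of the 3 libraries. Library totals were 26473939 counts for replicate 1, 26592335 for replicate 2 and 30745412 for replicate 3. Taken in pairs, 1174 of 14607 genes differed by more than Poisson sampling between replicates 1 and 2. Between replicates 1 and 3 it was 5435 of 14638 genes, and between replicates 2 and 3 4738 of 14586. So no library was a copy of another. The line's markers were present: all 8 luminal and line markers were detected, from ESR1 at 30.1 ± 0.665 TPM (17.4 TPM with the exon length of the GENCODE 29 annotation) to KRT19 at 3256 ± 605 TPM. Of the other lists, the basal markers lay at or below 1.48 TPM, the adipocyte markers at or below 0.839 TPM, and none of the immune and endothelial markers was detected. The 4 mesenchymal markers were uneven, with COL3A1 at 163 ± 23.4 TPM, COL1A1 at 10.5 ± 0.270 TPM, VIM at 3.27 ± 0.0515 TPM and PDGFRB, which was not detected, at 0.0468 TPM.

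Most initiation factor genes were expressed, and many at high level. Of the 48 members, 44 (91.7%) were detected, against 67.4% of 19024 protein-coding genes and 54.9% of all entries. A mean of at least 100 TPM was reached by 27 members (56.3%), against 10.2% of protein-coding genes. The median of all 48 members was 110 TPM, against 8.09 TPM over protein-coding genes and 25.8 TPM over those detected. Together they held 0.906%, 0.911% and 0.872% of the counts in replicates 1, 2 and 3. Of the 4 members not detected, EIF4A1, EIF3CL and EIF1AY were listed at 0 in every library, as were 22.3% of all entries, and EIF4E1B had 5, 4 and 3 counts.

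Levels ran over more than 3 orders of magnitude, with 40 of the 48 members at 10 TPM or more and 27 at 100 TPM or more. Highest were EIF4G2 and EIF1, whose libraries overlapped each other, with a gap below them to EIF3K. At the other end EIF3C, EIF4E3, EIF5A2 and EIF4E1B stayed under 1 TPM. A level depends on the length that is divided by: with the exon length of the GENCODE 29 annotation in place of the deposited length, 11 members moved by over 1.5 times, and these are named with both values below. With that length EIF4G2 was at 959 TPM, EIF1 at 558 TPM and EIF3E at 500 TPM. The overlap at the top and the gap below it thus rest on the deposited lengths.

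**Figure D1:**
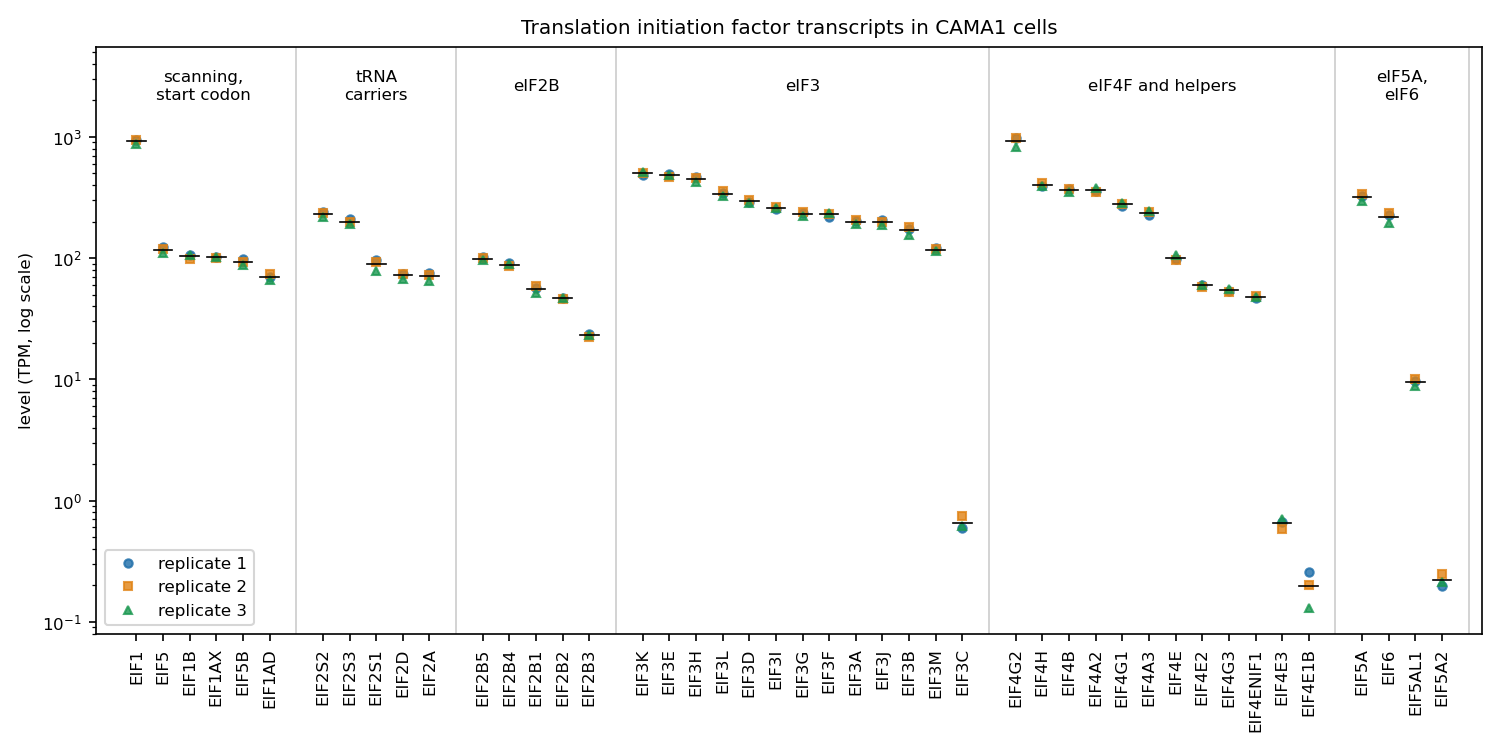
Level of each initiation factor gene above 0 in each of the 3 libraries of CAMA1 cells (vertical axis, TPM, log scale), ordered by complex and then by mean. Points are libraries and bars are means; EIF4G2 and EIF1 stand highest at 927 and 922 TPM, and 4 genes lie under 1 TPM.

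The scanning factors were led by EIF1, which keeps the scanning ribosome from stopping at wrong codons. EIF1 (chromosome 17, 41688875 to 41691646) had 948, 940 and 878 TPM in replicates 1, 2 and 3, a mean of 922 ± 38.0 TPM, or 558 TPM with the GENCODE length. Its paralog EIF1B had 106, 98.2 and 106 TPM, so that EIF1 exceeded it 8.91-fold as a geometric mean (log2 ratio 3.16 ± 0.11, SD, n = 3). Every library of EIF1 thus lay far above every library of EIF1B.

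EIF1AX, the X-linked gene of eIF1A, the partner of eIF1 in scanning, averaged 102 ± 1.14 TPM. Its Y-linked copy EIF1AY was listed at 0. EIF1AD, which shares the eIF1A-like domain, averaged 69.8 ± 3.93 TPM. EIF5, which makes eIF2 cleave its GTP once the start codon is met, averaged 117 ± 6.99 TPM, and EIF5B, the GTPase of subunit joining, 92.7 ± 4.93 TPM. EIF5 was higher than EIF5B in 3 of 3 libraries (log2 ratio 0.33 ± 0.02). EIF1AD was grouped here for its domain, and a role in this step was not tested. Apart from EIF1, the expressed genes so grouped lay within 69.8 to 117 TPM.

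The 3 subunits of eIF2 were not expressed at equal level. EIF2S2, the beta subunit, had 239, 233 and 220 TPM, and EIF2S3, the gamma subunit that holds the GTP and the tRNA, had 210, 198 and 191 TPM. EIF2S1 (chromosome 14, 67360317 to 67386516), the alpha subunit that the stress kinases phosphorylate, had 95.8, 92.2 and 78.1 TPM. EIF2S1 was lower than EIF2S2 in 3 of 3 libraries, with a log2 ratio of −1.38 ± 0.09. The ratio of EIF2S3 over EIF2S2 was −0.21 ± 0.02 on the log2 scale but turned to 0.105 with the GENCODE length, so no order is given between these subunits.

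EIF2A and EIF2D, which can bring initiator tRNA to ribosomes without eIF2, stood at 71.1 ± 5.76 TPM and 71.8 ± 3.47 TPM, and their libraries overlapped. EIF2A was at 133 TPM with the GENCODE length. Among the 5 subunits of eIF2B, the factor that reloads eIF2 with GTP, levels ran over 4.31-fold. EIF2B5, the catalytic epsilon subunit, was highest with 101, 99.7 and 96.2 TPM, and EIF2B3, the gamma subunit that pairs with it, was lowest with 23.7, 22.1 and 23.2 TPM. The other subunits lay between: EIF2B4 at 88.4 ± 2.51 TPM, EIF2B1 at 55.7 ± 3.58 TPM and EIF2B2 at 46.4 ± 0.157 TPM. With the GENCODE length EIF2B1 was at 31.8 TPM and EIF2B2 at 17.7 TPM, which places EIF2B2 under EIF2B3 (24.5 TPM).

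The eIF3 complex, the largest initiation factor and the platform on which the small subunit's other factors assemble, was expressed in nearly all its genes. Of its 14 genes 13 were detected and 12 exceeded 100 TPM. EIF3K, a peripheral subunit, was highest with 487, 501 and 514 TPM, or 317 TPM as a mean with the GENCODE length. EIF3M, a subunit of the PCI-domain ring, was lowest of the 12 with 120, 118 and 114 TPM, a 4.27-fold range (log2 ratio of EIF3K over EIF3M 2.09 ± 0.08). This log2 ratio was 2.895 with the GENCODE length and 1.481 over unshared bases.

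Between these ends, EIF3E averaged 480 ± 12.6 TPM and EIF3H 448 ± 19.9 TPM, each a subunit of the outer lobes of the complex. EIF3L, the partner of EIF3K, averaged 341 ± 17.0 TPM and EIF3D, which can bind the cap itself, 293 ± 9.12 TPM. EIF3I, EIF3G and EIF3B, which form a module with the scaffold EIF3A, averaged 257 ± 4.63, 232 ± 9.34 and 169 ± 12.2 TPM, and EIF3A 200 ± 7.08 TPM. EIF3F was at 229 ± 8.45 TPM and the loosely bound EIF3J at 197 ± 9.97 TPM. With the GENCODE length EIF3H was at 128 TPM, EIF3L at 202 TPM, EIF3F at 40.6 TPM and EIF3M at 42.5 TPM. EIF3E, at 500 TPM with that length, was then the highest subunit. The order among the expressed subunits thus depends on which exons are counted as the gene.

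EIF3C, a core subunit of the complex, stood apart at 0.591, 0.749 and 0.612 TPM, resting on 41, 52.33 and 50.33 counts. EIF3C and EIF3CL are near-identical copies on chromosome 16, deposited there with exons on both strands between 28379579 and 28735732. EIF3CL shares 99.9% of its exon bases with EIF3C and was listed at 0, and EIF3C shares 87.1% of its bases with EIF3CL. Divided by the 904 bases that EIF3C does not share, its counts give 4.93 TPM, and with the GENCODE length 1.37 TPM. The low value of EIF3C is therefore uncertain as a measure of its mRNA, and it is left out of the eIF3 range above.

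EIF4A1, the main helicase of eIF4F, could not be read in these data either. All 1877 of its exon bases (chromosome 17, 7572706 to 7579006) also lie in the readthrough entry SENP3-EIF4A1, and EIF4A1 was listed at 0. The readthrough entry itself had 2, 5 and 1 counts, with 422 of its 4303 bases its own. The neighbour SENP3, which shares 80.4% of its bases, had 309, 338 and 296 counts.

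A listing at 0 went with full overlap across the whole table. All 709 entries whose every exon base is shared with another entry, on either strand, were listed at 0, and 245 of these are protein-coding. Of 21380 entries that share no base, 21.5% were at 0. Among the 709 were 100 entries covered only by a gene on the opposite strand, all of them at 0. Overlap thus went with a listing at 0 whichever strand the other gene lay on. EIF1AY shares no base with another entry, so this does not apply to it; by counting error alone, 0 counts in a library allow a true value of up to 3.

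**Figure D2:**
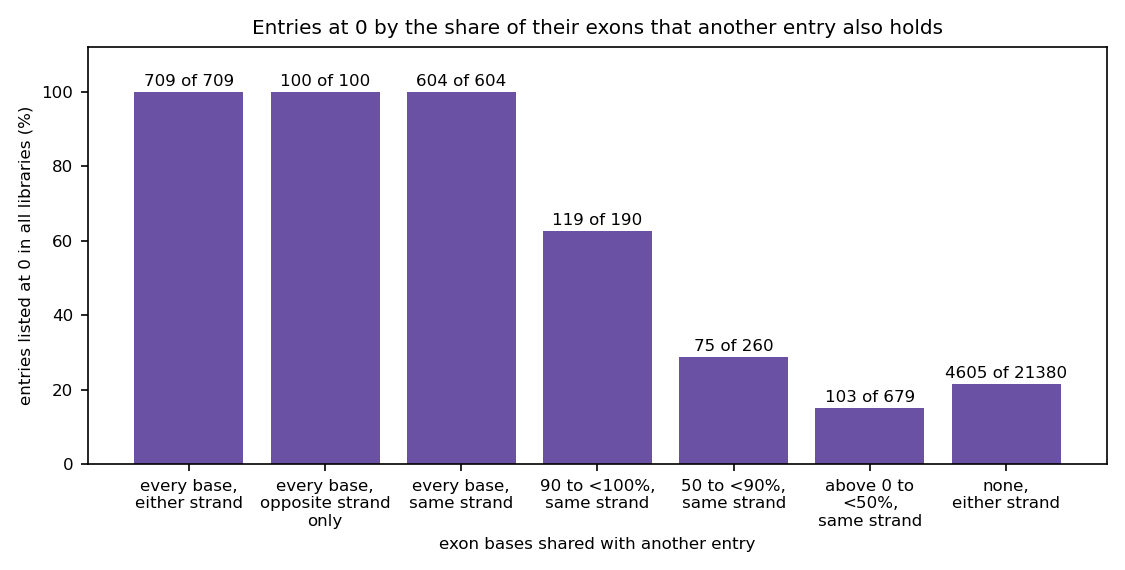
Share of entries listed at 0 in all 3 libraries (vertical axis, percent) by how much of an entry's exon length another entry also holds. All 709 fully shared entries were at 0, against 21.5% of 21380 entries that share no base; the bars for full sharing on the opposite or the same strand are parts of the first bar.

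The overlap touched few other members. EIF3M shares 34.6% of its bases with CCDC73 on the opposite strand and would stand at 175 TPM over its unshared 1125 bases, and EIF3G shares 10.3% and would stand at 253 TPM. All remaining members shared at most 4.44%. Values that were not whole within 1e-08 can arise where a read is divided among several matches. They occurred in 10 of 45 members above 0 (22.2%) and in 20.8% of all entries above 0. Of these members only EIF1AD and EIF3C share exon bases with another entry.

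In the helicase step, EIF4A2, the paralog of EIF4A1, had 357, 350 and 376 TPM. EIF4A3, a related helicase that works in the exon junction complex on spliced mRNA, had 228, 240 and 243 TPM. EIF4A3 was lower than EIF4A2 in 3 of 3 libraries (log2 ratio −0.61 ± 0.06). The helicase helpers EIF4H and EIF4B averaged 399 ± 12.2 TPM and 365 ± 11.4 TPM; their log2 ratio, EIF4B over EIF4H, was −0.13 ± 0.04, and 0.55 in CPM without division by length.

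EIF4G2 had the highest mean of the members, with libraries that overlapped those of EIF1 at the deposited lengths. It encodes DAP5, a relative of the eIF4G scaffold that lacks the part that binds eIF4E. EIF4G2 (chromosome 11, 10797046 to 10809035) had 979, 978 and 824 TPM, and ranked 111 among protein-coding genes. EIF4G1, the scaffold that joins eIF4E to eIF4A, had 268, 278 and 286 TPM, and EIF4G3, a second such scaffold, 53.8, 52.5 and 55.7 TPM. The 3 genes did not overlap in any library. EIF4G2 made up 73.5 ± 2.51% of their summed TPM, EIF4G1 22.1 ± 2.12% and EIF4G3 4.31 ± 0.410%.

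The log2 ratio of EIF4G2 over EIF4G1 was 1.87, 1.81 and 1.52 in replicates 1, 2 and 3, lowest in replicate 3, where EIF4G2 was low and EIF4G1 high. The log2 ratio of EIF4G1 over EIF4G3 was 2.36 ± 0.04. EIF4G1 and EIF4G3, the scaffolds that bind eIF4E, thus summed to less than EIF4G2 in every library.

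Among the cap-binding proteins EIF4E, the cap-binding subunit of eIF4F, had 99.0, 96.4 and 105 TPM. EIF4E2 (4EHP), a cap-binding repressor, had 60.1, 57.7 and 60.5 TPM. The log2 ratio of EIF4E over EIF4E2 was 0.75 ± 0.04 with the deposited lengths and −0.085 with the GENCODE length, where EIF4E was at 44.4 TPM and EIF4E2 at 47.1 TPM, so no order is given between them. EIF4E3 was at 0.650 ± 0.0647 TPM and EIF4E1B, a form known from oocytes, at 0.196 ± 0.0634 TPM. EIF4ENIF1 (4E-T), which carries eIF4E into the nucleus, averaged 47.9 ± 0.999 TPM.

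EIF5A, a factor that carries the modified amino acid hypusine and eases peptide bond formation, had 326, 340 and 294 TPM. Its paralog EIF5A2 had 10.83, 13.79 and 13.96 counts, or 0.221 ± 0.0265 TPM, so that EIF5A held 97.1 ± 0.0277% of the family's TPM. EIF5AL1, an intronless near-copy of EIF5A, had 9.50 ± 0.616 TPM; all 3 genes had values that were not whole, so reads divided among such copies leave the small shares uncertain. EIF6, which keeps free large subunits from joining, had 225, 235 and 193 TPM. EIF5A and EIF6 were both lowest in replicate 3.

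Of the 15 log2 ratios computed between members or with EIF4EBP1, those of the highest over the lowest subunit (EIF3K over EIF3C, EIF3K over EIF3M and EIF2B5 over EIF2B3) had genes picked by their levels, which fixes the sign. The other ratios also had 1 sign in 3 of 3 libraries. Each ratio was tested with an exact permutation of signs (two-sided), which gave p = 0.25 throughout, also after Benjamini-Hochberg adjustment over the 15. That is the smallest p that 3 libraries allow, so none could pass 0.05.

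How far the libraries differed was tested for each gene against Poisson sampling, in CPM (counts scaled to a common library total, not divided by length), with p-values adjusted over all genes tested. Of the 44 members tested, 26 differed beyond Poisson sampling, a background of 41.6% over 14453 genes and of 52.7% over the 9997 genes with a mean of at least 10 CPM. None of the 44 differed beyond the spread usual for genes of like level (edgeR's trended negative binomial dispersion), where 1.21% of all genes and 1.34% of those of at least 10 CPM did; at an unadjusted p under 0.05 the count was also 0 of 44, against 854 of 14453 genes. The members' median ratio of the highest to the lowest library was 1.08, against 1.13 over protein-coding genes and 1.11 over genes of at least 10 CPM. Over all genes tested it was also 1.08 at 100 to 178 CPM and at 178 to 316 CPM, levels at which many members lay.

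EIF4G2 had the smallest p of the members against Poisson sampling, with 1580, 1600 and 1386 CPM in replicates 1, 2 and 3 (adjusted p = 7.08e-115, edgeR scaling, chi-square test). EIF4G1 followed with 620, 652 and 690 CPM (adjusted p = 1.22e-22). The pair moved in opposite directions: replicate 3 was the lowest library for EIF4G2 and the highest for EIF4G1. EIF2S1 had 148, 144 and 126 CPM (adjusted p = 2.13e-12), and EIF6 had 122, 130 and 110 CPM (adjusted p = 1.65e-10). EIF4A2 had 250, 248 and 275 CPM (adjusted p = 2.85e-10). EIF4E had 185, 182 and 204 CPM (adjusted p = 3.73e-09), high in replicate 3 with the scaffold EIF4G1 and the helicase EIF4A2.

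Replicate 3 was at one end for most of these genes, as it was for most genes that passed. Of the 26 genes, 15 were lowest, 9 highest and 2 in the middle in replicate 3; of the 6018 genes that passed among all tested, 2694 were lowest, 2804 highest and 520 in the middle there. Without it, 6 members differed beyond Poisson sampling between replicates 1 and 2, namely EIF4H, EIF4G1, EIF3L, EIF3D, EIF5A and EIF4A3, against 1174 of 14607 genes. Replicate 3 was also the deepest library, and in it 7 of the 8 luminal and line markers were highest, against 5746 of 14453 genes tested, with summed shares of 0.596%, 0.656% and 0.733% of counts in replicates 1, 2 and 3. The part of depth and of the markers in these differences was not tested.

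The deviations are given by step beside all genes tested, of which 5758 of 14453 were lowest and 5746 highest in replicate 3 and 41.6% passed the Poisson test (52.7% at 10 CPM or more). All 5 genes of eIF2 and the alternative tRNA carriers were lowest in replicate 3, and 3 of them passed the Poisson test (EIF2S1, EIF2S3 and EIF2A). Of the 11 tested genes of eIF4F and its helpers, 8 passed, of which 5 were highest in replicate 3. Of the 6 tested genes grouped with the scanning factors, EIF1AD among them, 5 passed, and 8 of 13 eIF3 genes. None of the 5 eIF2B genes passed, the lowest of their 5 adjusted p-values being that of EIF2B1 (0.123). These counts were read from the libraries that also define them, and a difference between steps was not tested.

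**Figure D3:**
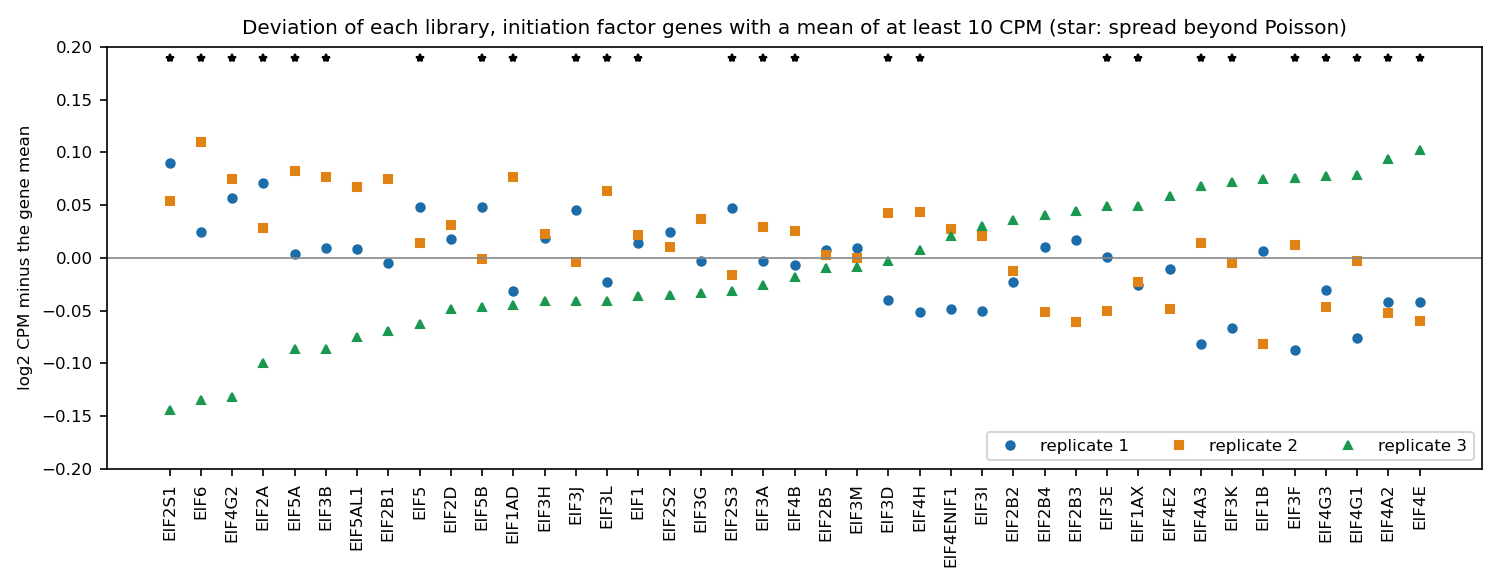
Deviation of each library from the gene's mean (vertical axis, log2 CPM) for the 41 initiation factor genes with a mean of at least 10 CPM, ordered by the deviation of replicate 3. Stars mark the genes that passed the test against Poisson sampling; replicate 3 ranges from −0.14 for EIF2S1 to 0.10 for EIF4E.

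No tested member of at least 1 CPM lay above the 95th percentile of genes of like level. EIF3M and EIF2B5 were the steadiest, with a highest library 1.013 and 1.012 times the lowest, just under the 5th percentile at their levels (1.024 and 1.020). EIF6 at 1.185 and EIF2S1 at 1.176 had the largest ratios among members of at least 10 CPM, still under the 95th percentile of 1.263 for their level.

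**Figure D4:**
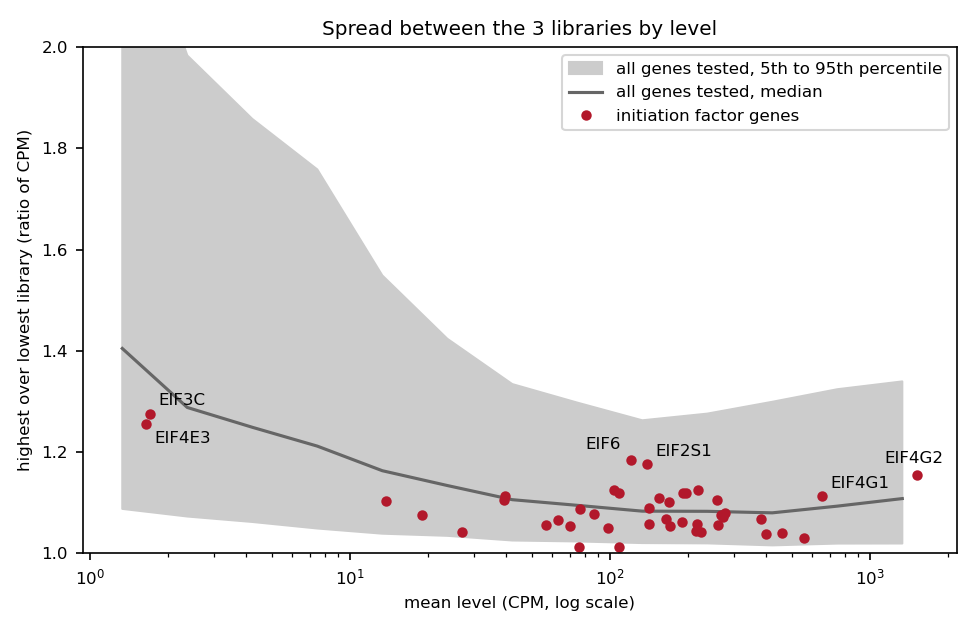
Ratio of the highest to the lowest library (vertical axis) against the mean level (horizontal axis, CPM, log scale) for the initiation factor genes of at least 1 CPM, as points. The line and the grey band give the median and the 5th to 95th percentile of all genes tested, the band running off the top at the lowest levels; EIF6 and EIF2S1 lie above the median and inside the band.

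Many mRNAs of the translation machinery are known to start with a C followed by a run of pyrimidines, the 5′ terminal oligopyrimidine (TOP) motif, through which mTOR and the RNA-binding protein LARP1 control their translation. The annotated starts of the initiation factor genes were therefore read for a C at the first base followed by at least 4 further pyrimidines (C or T), on the gene's own strand only. RefSeq windows (GRCh38.p14) were available for 41 of the 48 members, and 9 of these (22.0%) held the motif at an annotated start. The 7 members without a window were EIF2S2, EIF3A, EIF3CL, EIF3E, EIF3G, EIF3H and EIF3L. Over all 27305 genes of the RefSeq promoter table the share was 5.14%, and over 9945 detected protein-coding genes it was 7.36%. The windows of the 9 genes are printed to show the motif, with 15 bases on each side of the start and, in capitals, the pyrimidine run from the first transcribed base.
EIF3F: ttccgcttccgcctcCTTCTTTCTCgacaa
EIF3D: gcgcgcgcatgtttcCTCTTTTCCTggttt
EIF3K: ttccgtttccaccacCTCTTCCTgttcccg
EIF3M: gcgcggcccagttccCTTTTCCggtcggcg
EIF2A: tcacccgagcggtttCTCTTTCCgggacaa
EIF2D: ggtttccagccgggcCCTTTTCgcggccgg
EIF2S3: ggggtgatttccttcCTCTTTTggcaacat
EIF4A2: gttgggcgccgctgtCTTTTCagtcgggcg
EIF4B: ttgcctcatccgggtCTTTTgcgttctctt

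These windows lie at chr11:7987322-7987351 (EIF3F, plus strand), chr22:36529152-36529181 (EIF3D, minus strand), chr19:38619173-38619202 (EIF3K, plus strand) and chr11:32583816-32583845 (EIF3M, plus strand). Those of EIF2A and EIF2D are at chr3:150546772-150546801 (plus strand) and chr1:206612451-206612480 (minus strand), and that of EIF2S3 at chrX:24054941-24054970 (plus strand). EIF4A2 and EIF4B are at chr3:186783562-186783591 and chr12:53006441-53006470, both on the plus strand. The runs were longest, at 10 pyrimidines, in EIF3F and EIF3D, and shortest, at 5, in EIF4B. The motif thus occurred in eIF3, in tRNA carriers and in the helicase step.

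For contrast, windows of 4 members without the motif are shown. EIF4E was taken as a subunit of eIF4F, and EIF4A3 as a helicase related to EIF4A2. EIF4H, whose run ends after 2 bases, was taken as the counterpart of EIF4B, and EIF1 as a very abundant member.
EIF4E: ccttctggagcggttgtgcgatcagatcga
EIF4A3: gttctcggcagcggcacagcgaggtcggca
EIF4H: ccttcctcgctcaccCTggttcctctcgga
EIF1: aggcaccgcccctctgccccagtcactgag

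These lie at chr4:98929119-98929148 (EIF4E, minus strand), chr17:80147114-80147143 (EIF4A3, minus strand), chr7:74174341-74174370 (EIF4H, plus strand) and chr17:41688870-41688899 (EIF1, plus strand). The windows are taken from annotation and not from these reads, so they do not show where transcripts began in CAMA1 cells. Members with the motif had a median of 229 TPM (n = 9, from 71.1 to 501 TPM), and members without it a median of 90.7 TPM (n = 32, from 0 to 927 TPM). The ranges overlapped widely, and the members without the motif include EIF4A1 and EIF3C, whose levels are uncertain.

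**Figure D5:**
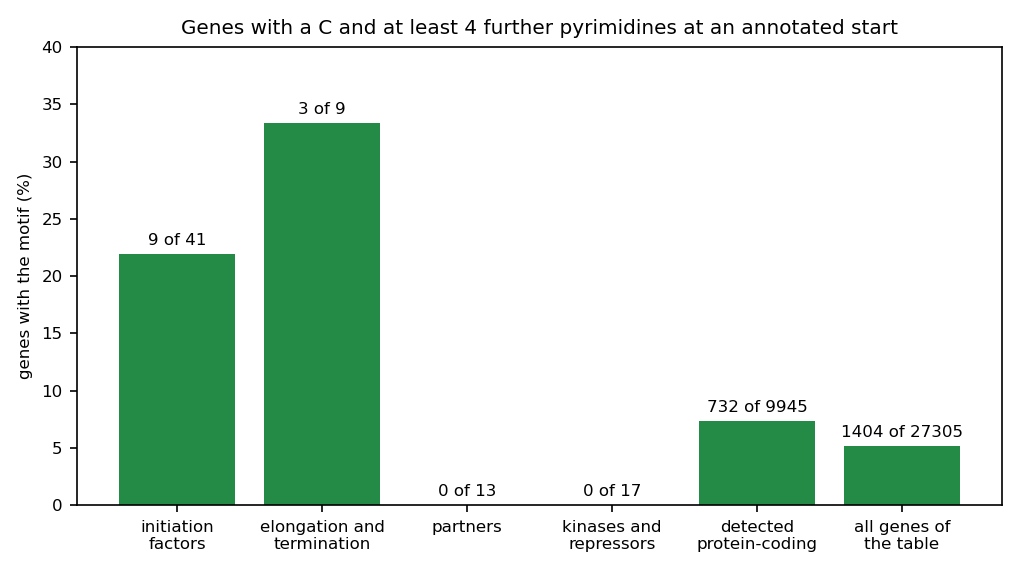
Share of genes (vertical axis, percent) with a C followed by at least 4 further pyrimidines at an annotated start, in the initiation factors, 3 lists of related genes and 2 backgrounds; numbers over the bars are genes with the motif of genes with a window. The share was 22.0% of the initiation factors and 33.3% of elongation and termination factors, against 7.36% of detected protein-coding genes.

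The genes listed as acting on initiation factors were all detected, but not all at high level. Of 19 kinases, repressors and signalling genes of initiation, all were detected, against 67.4% of protein-coding genes, with a median of 56.0 TPM. Lowest was EIF4EBP3 at 2.43 TPM, on 17, 12 and 25 counts. It shares 74.7% of its bases with ANKHD1-EIF4EBP3, so its level is uncertain. Between libraries, 11 of 19 differed beyond Poisson sampling, near the 52.7% of genes of at least 10 CPM. None differed beyond the spread usual for their level. Highest were PDCD4, a repressor that binds eIF4A, at 321 ± 10.1 TPM (493 TPM over the bases it does not share), PAIP2, which holds poly-A binding protein off the mRNA, at 294 ± 2.62 TPM, LARP1 at 171 ± 8.14 TPM and the S6 kinase gene RPS6KB2 at 165 ± 3.36 TPM. EIF4EBP1, the mTOR-controlled protein that keeps eIF4E from eIF4G, had 153, 164 and 173 TPM, above EIF4E in 3 of 3 libraries (log2 ratio of EIF4E over EIF4EBP1 −0.71 ± 0.07, −1.72 with the GENCODE length and 1.85 in CPM, which does not divide by length). None of the 17 genes of this list with a window held the TOP motif, against 7.36% of detected protein-coding genes.

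The 4 kinases of eIF2, named here after their values were seen, were all detected. EIF2AK1 (HRI), the kinase of heme shortage, stood highest at 161 ± 7.65 TPM. EIF2AK4 (GCN2), the kinase of amino acid shortage, was at 55.9 ± 3.64 TPM, EIF2AK2 (PKR), which senses double-stranded RNA, at 44.0 ± 6.57 TPM, and EIF2AK3 (PERK), of the unfolded protein response, at 16.5 ± 1.32 TPM. With the GENCODE length EIF2AK2 was at 19.8 TPM. EIF2AK1 thus exceeded the other kinases and also its substrate subunit EIF2S1 in mean level per length.

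Of 17 partners of initiation factors, all were detected, against 67.4% of protein-coding genes, with a median of 91.7 TPM. Between libraries, 9 of 17 differed beyond Poisson sampling, also near 52.7%, and 0 beyond the spread usual for their level. The highest were PABPC1, the poly-A binding protein that ties the mRNA's tail to eIF4G, at 536 ± 15.4 TPM, BZW1 at 363 ± 9.90 TPM and BZW2 at 291 ± 21.9 TPM, both mimics of eIF5, and the helicase DDX3X at 194 ± 10.8 TPM. BZW1 was at 199 TPM with the GENCODE length. None of the 13 genes of this list with a window held the motif, beside the same 7.36%.

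Of 11 elongation and termination factors 10 were detected, against 67.4% of protein-coding genes. The median was 212 TPM over the list, and GSPT2 was listed at 0. EEF1A1, which brings aminoacyl-tRNA to the ribosome and has near-identical copies in the genome, stood at 2732 ± 98.8 TPM. EEF2, the translocase, stood at 1613 ± 84.4 TPM, EEF1G, a subunit of the exchange factor of eEF1A, at 786 ± 17.5 TPM, and EEF1A2, a second eEF1A gene, at 599 ± 81.5 TPM. EEF1A1 thus exceeded both EIF4G2 and EIF1 in every library. In this list 8 of 10 tested genes differed beyond Poisson sampling, beside the same 52.7%, and 0 beyond the spread usual for their level. The motif was held by 3 of its 9 genes with a window, beside the same 7.36%.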

How the data were processed

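Poly-A RNA of 3 CAMA1 libraries was sequenced. The deposited values were expected counts per gene, with a gene length and exon coordinates. The submitters' processing notes list TopHat, featureCounts and Subread, and the build hg38. Versions, and how strand and reads with several matches were treated, are not given in the sources used here, so overlapping and near-identical genes are uncertain. Totals were 26473939, 26592335 and 30745412 counts; a limit based on a count of 0 covers counting error alone.

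TPM were computed from the deposited counts and lengths. For spread, expected counts were rounded to whole numbers and scaled in edgeR 4.0.16 (R 4.3.3; TMM factors 1.01, 1.00 and 0.990, its filter on low counts, intercept only). A Pearson chi-square test against Poisson sampling was adjusted by Benjamini-Hochberg over 14453 genes at 0.05; the trended negative binomial dispersion replaced Poisson as an alternative. The Poisson test was tried on simulated Poisson counts in which some genes had a known extra spread. The negative binomial alternative was not checked there. Ratios were log2 with 0.01 TPM added. Positions and shared bases came from the deposited exon coordinates. Biotypes (by gene name) and start windows came from RefSeq, and alternative lengths from GENCODE 29.

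Every member is named, with the 4 highest genes of each list by mean TPM and any that passed the negative binomial test; others were named after their values were seen. The members and lists were chosen with earlier results of these data known. Alternatives were count minimums, pseudocount, CPM, other lengths, DESeq2 1.42.0 size factors, no filter, EIF3IP1 kept and leaving out each replicate.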

Additional observations from a re-analysis of the deposited data

How the results depend on the processing

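No paired analysis was possible because the series has 1 group. The count of members detected stayed between 41 and 45 under every setting run (main 44), and the members' share of counts between 0.889% and 0.908% (main 0.896%). The members differing beyond Poisson sampling (main 26) were 0 with the negative binomial dispersion, 25 with DESeq2 size factors, 23 with no filter and 6 to 22 with 1 replicate left out, the 6 being without replicate 3. Over all genes (main 6018) the count was 175 with the negative binomial dispersion and 1174 to 5435 with 1 replicate left out. The log2 of the members' median over that of protein-coding genes was 3.76, and 3.82 with the GENCODE length; with 2 settings chosen after seeing the data it was 3.68 over unshared bases and 2.48 over detected genes.

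Of 15 log2 ratios, 12 stayed within 1 SD of their value with a pseudocount of 1 TPM. Over unshared bases (chosen after seeing the data) 13 did, with the GENCODE length 4 and with CPM 0. All 15 did with each replicate left out. That outcome was fixed in advance, since the mean of 2 of 3 libraries cannot move by 1 SD, so it says nothing of stability. With the GENCODE length 2 turned sign, EIF4E over EIF4E2 to −0.085 and EIF2S3 over EIF2S2 to 0.105. With CPM, which does not divide by length, 3 did: EIF2S3 over EIF2S2 to 0.21, EIF4B over EIF4H to 0.55 and EIF4E over EIF4EBP1 to 1.85. The ratio of EIF3K over EIF3C (9.57) was 6.64 over unshared bases, chosen after seeing the data; leaving EIF3C out of the eIF3 range (EIF3K over EIF3M, 2.09, and 1.48 over unshared bases) was chosen likewise. Ratios of EIF4A1 over EIF4A2 and EIF3C over EIF3CL were not run, since 1 of each pair was listed at 0. Depth limits the lowest members most, with EIF4E1B resting on 3 to 5 counts and EIF5A2 on 10.83 to 13.96.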
